A study of Mus musculus with 18 samples.

Results

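Ttr, Rbp4, Apoa1, Apob, Apoe, Afp, Spink1, Cubn, Amn and Dab2 are 10 genes named together as secretory and uptake genes of the visceral endoderm. The list was given by name, with earlier results of these data known, and all 10 were found among the 22997 nuclear genes of every count file. Their transcripts were followed in single cells of C57BL/6 WT mouse embryos at embryonic day 6.75 (E6.75) and E7.5, with no mutant, transgene or treatment in either group. The E6.75 group had 6 libraries (1_10, 1_11, 2_9, 2_12, 2_13 and 2_14) of hand-picked cells, made from embryos dissociated singly after the extraembryonic part had been removed. The E7.5 group had 12 libraries (replicates 1 to 12) of cells sorted by flow cytometry, from pooled embryos of 1 or 2 litters that were trimmed below the chorion. Cells were sequenced in libraries of 96, and stage, way of collecting and protocol (CEL-Seq2 at E6.75, mCEL-Seq2 at E7.5) changed together, so their parts in any difference between stages cannot be told apart.

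The visceral endoderm is the epithelium that wraps the early mouse embryo before the placenta works. It takes up maternal proteins and lipids through a dense apical endocytic system, breaks them down in lysosomes, and secretes lipoproteins and carrier proteins of the kind that the liver makes later. Its anterior part, which expresses Cer1, Hhex, Lefty1, Dkk1 and Lhx1, is a signalling centre that patterns the epiblast beneath it, and part of the layer is later intermingled with definitive endoderm. Among the 10 genes, Apoa1, Apob and Apoe encode apolipoproteins of high-density, low-density and remnant-type particles. Ttr encodes transthyretin, a carrier of thyroid hormone and of the retinol-binding protein that Rbp4 encodes. Afp encodes alpha-fetoprotein, the albumin-like protein of fetal serum, and Spink1 a secreted trypsin inhibitor. Cubn and Amn encode cubilin and amnionless, the 2 chains of an endocytic receptor, and Dab2 a clathrin adaptor that links receptors of this kind to coated pits.

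In GENCODE vM21 (GRCm38) Apoe is at chr7:19696109-19699188 on the minus strand, Apoa1 at chr9:46228580-46230466 on the plus strand and Apob at chr12:7977648-8016835 on the plus strand. Rbp4 is at chr19:38116629-38125281 on the minus strand and Afp at chr5:90490737-90508907 on the plus strand. Cubn spans chr2:13276338-13491813 on the minus strand, Amn chr12:111271095-111276426 on the plus strand and Dab2 chr15:6299788-6440712 on the plus strand. Afp, Cubn and Dab2 each overlap annotated genes on the opposite strand (Gm43449 for Afp, Gm13270 for Cubn, Gm16311 and Gm18888 for Dab2). Whether counting used strand is not given in the sources used here, so reads of those partners cannot be told apart from theirs. The build and annotation behind the counts are not given in the sources used here either, and these positions were joined by gene symbol.

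RefSeq promoter windows (GRCm38.p6) matched 8 of the 10 genes. They held 12 windows of 250 bases ending just before a start site, and 5 of them are shown because these 5 secreted products were higher in 1 set of cells, described next, whose endoderm transcription factors were also measured. The letters searched on both strands were TGTTTAC and TGTTTGC for FOXA factors, GTTAAT for HNF1, CAAAGTCCA for HNF4 and AGATAA for GATA factors, and none of these holds another. Capitals mark the matches, 5′ to 3′ on the gene's own strand. Shown are Afp (chr5:90490464-90490713, plus strand), Apoa1 (chr9:46228380-46228629, plus strand), Apob (chr12:7977427-7977676, plus strand), the more upstream Rbp4 window (chr19:38125322-38125571, minus strand) and the most upstream Apoe window (chr7:19699189-19699438, minus strand).
Afp: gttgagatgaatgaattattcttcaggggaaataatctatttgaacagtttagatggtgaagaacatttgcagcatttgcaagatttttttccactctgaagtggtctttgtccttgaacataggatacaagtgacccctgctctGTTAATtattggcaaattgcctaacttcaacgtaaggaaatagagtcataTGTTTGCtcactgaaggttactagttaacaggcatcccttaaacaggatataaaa
Apoa1: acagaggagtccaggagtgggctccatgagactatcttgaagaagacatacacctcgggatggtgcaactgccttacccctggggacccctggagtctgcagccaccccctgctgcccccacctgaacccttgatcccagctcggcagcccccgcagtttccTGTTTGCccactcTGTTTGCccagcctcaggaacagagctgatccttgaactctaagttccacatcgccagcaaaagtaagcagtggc
Apob: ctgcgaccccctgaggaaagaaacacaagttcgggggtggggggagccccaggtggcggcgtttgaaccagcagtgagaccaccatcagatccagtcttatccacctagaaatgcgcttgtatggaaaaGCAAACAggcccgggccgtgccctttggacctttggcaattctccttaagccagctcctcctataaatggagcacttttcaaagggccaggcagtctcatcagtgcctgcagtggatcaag
Rbp4: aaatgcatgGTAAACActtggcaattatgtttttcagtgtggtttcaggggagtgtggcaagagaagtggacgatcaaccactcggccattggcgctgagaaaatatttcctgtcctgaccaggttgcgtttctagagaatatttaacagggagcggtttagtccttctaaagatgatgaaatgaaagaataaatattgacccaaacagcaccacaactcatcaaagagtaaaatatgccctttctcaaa
Apoe: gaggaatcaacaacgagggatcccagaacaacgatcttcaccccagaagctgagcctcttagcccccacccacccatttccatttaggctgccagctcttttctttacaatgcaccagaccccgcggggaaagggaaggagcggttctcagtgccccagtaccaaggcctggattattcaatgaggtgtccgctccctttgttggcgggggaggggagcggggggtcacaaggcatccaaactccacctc

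A match was found in 6 of the 12 windows, belonging to 6 genes. The Apoa1 window held TGTTTGC at -88 to -82 and again at -75 to -69 relative to its start, and the Apob window held its reverse complement GCAAACA at -121 to -115. The Afp window held GTTAAT at -105 to -100 and TGTTTGC at -55 to -49. The upstream Rbp4 window held the reverse complement of TGTTTAC at -241 to -235. An Apoe window other than the one shown, and 1 Dab2 window, held an HNF1 match. Over 32851 windows of the same length, 4.30% held TGTTTGC, 3.17% TGTTTAC, 6.43% GTTAAT, 0.384% CAAAGTCCA and 9.99% AGATAA, and 21.7% held at least 1 of the 5. The starts of the Afp window and of the upstream Rbp4 window are not starts of a GENCODE vM21 transcript. The other Rbp4 window (chr19:38124812-38125061), which is not shown, held no match, and the bases after its start are found in a GENCODE vM21 transcript. These matches describe letters and not binding.

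The cells that carry the 10 genes were picked with other genes, so that the 10 could be measured without having chosen the cells. A cell was kept when it had at least 2000 nuclear transcripts, which left 543 cells at E6.75 and 429 at E7.5 and no cell in E7.5 replicate 5. A gene's level is given throughout as transcripts per 10000 nuclear transcripts, in 1 cell or summed over a set of cells of 1 library. Each transcript is read once near its 3′ end, so levels of different genes do not depend on gene length. Cells with at least 20 transcripts per 10000 over 16 visceral endoderm genes outside the 10 (among them Apoa2, Apom, Trf, Fga, Hnf4a and Mttp) formed the 16-gene gate. Most of that sum outside the gate came from Car4, so a 15-gene gate without Car4, at 5 per 10000, was added after the values were seen. The 16-gene gate is used for the tests and the 15-gene gate for the descriptions, with both values given where they differ.

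At E6.75 the 16-gene gate held 29 of 543 cells and the 15-gene gate 40, of which 28 were shared. By library, in the order 1_10, 1_11, 2_9, 2_12, 2_13 and 2_14, the 15-gene gate held 3, 3, 16, 3, 9 and 6 cells, so library 2_9 supplied more gate cells than any other. The 1 cell found only by the 16-gene gate had 2798 transcripts and none from the 10 genes. Clustering of all E6.75 cells put 37 of the 40 into a single visceral endoderm-like cluster of 40 cells, whose leading genes included Ctsh, Apoc2 and Clic6. The 10 genes and the 16 gate genes were left out of the clustering. The cluster was named from the same 15 gate genes, so its name is no separate support for what the gate cells are. The gate cells were shallower than the rest, with a median of 22849 against 41874 transcripts. Their epiblast markers (Pou5f1, Nanog, Sox2 and 5 others) summed to 15.7 to 29.7 per 10000 by library, against 54.9 to 71.2 in the other cells, and none of the 8 was at 0. Their parietal endoderm markers (Sparc, Lama1, Col4a1 and 5 others) summed to 15.2 to 24.4 against 3.08 to 4.84, with Thbd at 0 in both. Their extraembryonic ectoderm markers summed to 2.51 to 3.99 against 0.236 to 2.46, with Elf5 at 0 in gate cells. Their definitive endoderm markers (Sox17, Foxa2, Krt8 and 3 others) summed to 6.61 to 8.43 against 0.941 to 2.42, with Pyy at 0 outside the gate. The part of such transcripts in the values below was not tested. Just inside the 15-gene gate, cells at 5.27, 5.82 and 6.33 per 10000 had 58.1, 38.3 and 49.0 per 10000 summed over the 10 genes. Just outside, cells at 4.93, 4.83 and 4.49 had 25.9, 0 and 4.49. The highest sum over the 10 genes in any E6.75 cell outside this gate was 79.9 per 10000. The visceral endoderm-like cluster had 3 cells outside the gate, so levels given below for cells outside it include such cells.

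All 10 genes were higher in gate cells than in the other cells of the same E6.75 libraries, by 21.3-fold for Apoe to 176-fold for Apob in the 16-gene gate. The fit (edgeR quasi-likelihood test, library as a block, 5 libraries with at least 3 gate cells) called 3774 of 10472 genes, which is 36.0%, with 16.9% higher and 19.1% lower in gate cells. The median log2 difference was 6.58 over the 10 genes and -0.11 over all genes tested. Without library 2_9 the log2 differences of Apob, Afp and Spink1 were 8.30, 7.91 and 7.53, each over 1.5 times larger in fold. Adjusted p-values (Benjamini-Hochberg) of the 10 ran from 1.43e-16 to 4.49e-13. The 10 were named as genes of the tissue that the gate selects, with earlier results of these data known. In the fit of cells outside the gate between stages, only 3 of the 10 passed the filter on low counts. A higher level in gate cells was thus close to given beforehand, and these p-values are no separate support. In the 15-gene gate (6 libraries) 10 of 10 were again higher, with 41.2% of genes called, 15.9% higher and 25.3% lower. The labels do not say that the libraries came from separate embryos, so these p-values measure only the spread between libraries. Levels by library, for all 10 genes, are drawn below and described by role in the following paragraphs.

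**Figure D1:**
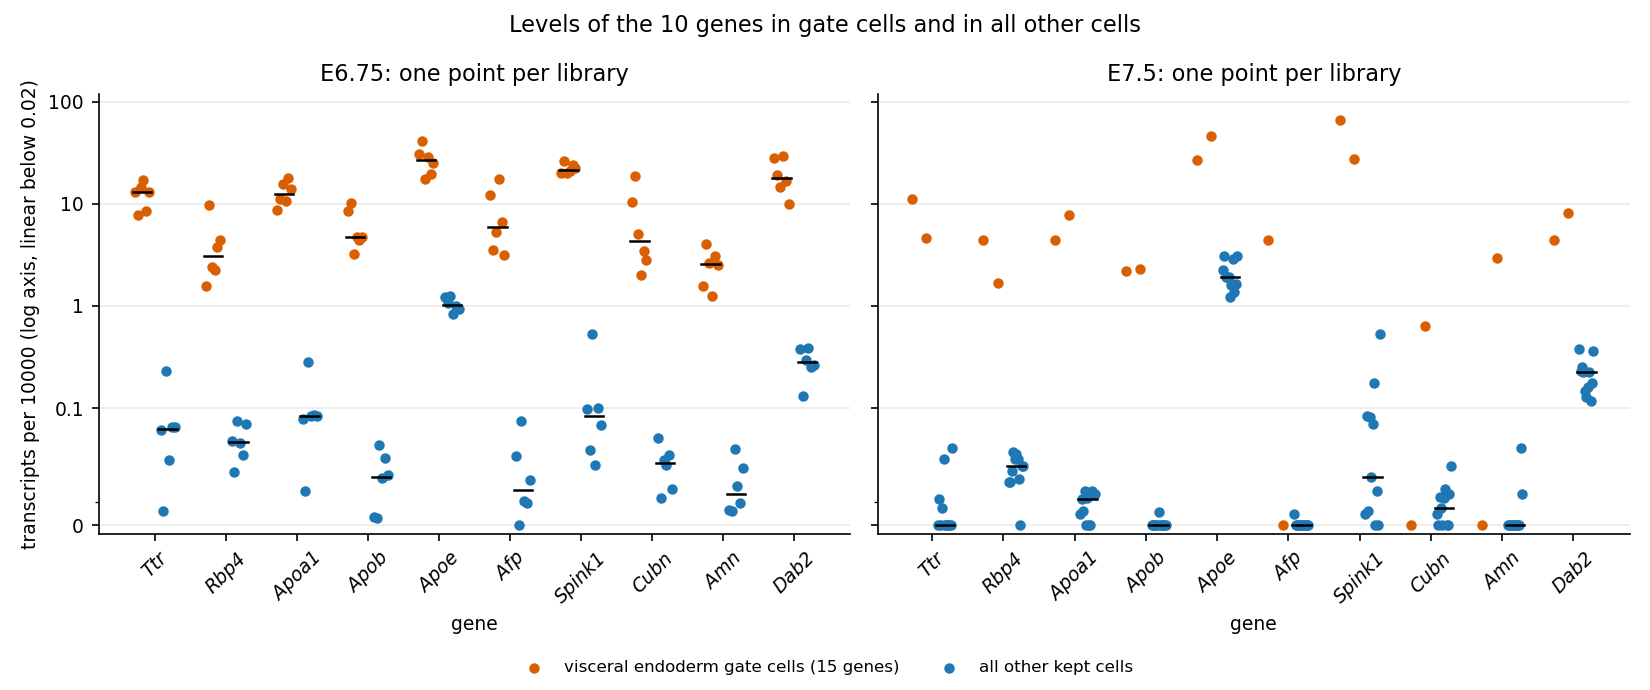
Level of each gene (transcripts per 10000 nuclear transcripts, log axis above 0.02 and linear below) in 15-gene gate cells (orange) and all other kept cells (blue), 1 point per library and a bar at the median for groups of more than 2 libraries, at E6.75 (left, 6 libraries) and E7.5 (right, 11 libraries, of which 2 had a gate cell). At E6.75 the orange points lie above all blue points for each gene, and the share of all genes for which this holds was not counted. Apoe and Dab2 have the highest blue points, with medians of 1.03 and 0.281.

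Among the apolipoproteins, Apoe had the highest level, both inside the gate and outside it. In 15-gene gate cells it stood at 30.6, 41.2, 17.4, 28.9, 19.6 and 25.01 in libraries 1_10, 1_11, 2_9, 2_12, 2_13 and 2_14. In the other cells of the same libraries it stood at 1.23, 1.06, 1.26, 0.840, 1.004 and 0.924. Library 1_11 was the highest among gate cells. The log2 difference was 4.41 ± 0.17 (SE) in the 16-gene gate and 4.35 ± 0.16 in the 15-gene gate, the smallest of the 10 genes by either gate. Apoa1 stood at 8.67, 11.1, 15.4, 10.8, 17.7 and 13.8 in the same order of libraries, a range of about 9 to 18. Outside the gate it was 0.078, 0.015, 0.282, 0.083, 0.086 and 0.084, with library 2_9 apart from the rest. Its log2 difference was 6.53 ± 0.29 by the 16-gene and 6.84 ± 0.22 by the 15-gene gate.

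Apob, the structural protein of chylomicrons and very-low-density particles, was lower and more uneven than Apoa1. Its gate levels were 8.51, 10.1, 3.25, 4.75, 4.41 and 4.75, so the 2 libraries of title prefix 1 stood above the 4 of prefix 2, though in the 16-gene gate the single gate cell of library 2_12 (9.37) was above library 1_10 (8.15). Outside the gate it ran from 0.003 to 0.043 by library, the mean being 0.0208 ± 0.0159 (SD, n = 6). This gave the largest difference by the 16-gene gate, a log2 value of 7.46 ± 0.36, and 7.63 ± 0.27 by the 15-gene gate. Transcripts of Apob were found in 29 of the 40 gate cells, fewer than for any other of the 10 genes.

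The carriers Ttr and Rbp4, whose proteins travel together in blood, differed from each other in level. Ttr stood at 12.95, 7.72, 14.6, 17.3, 8.49 and 12.9 in gate cells and at 0.061, 0.006, 0.232, 0.031, 0.065 and 0.066 outside the gate. Library 2_9 was again the highest outside it. The log2 difference of Ttr was 6.48 ± 0.32 by the 16-gene gate (89.0-fold) and 7.13 ± 0.23 by the 15-gene gate. Rbp4 stood at 1.57, 9.70, 2.43, 2.25, 3.77 and 4.45 in gate cells, with library 1_11 far above the other five. Outside the gate it was 0.0238 to 0.0742, and its log2 difference was 5.79 ± 0.30 (55.1-fold), or 5.99 ± 0.26 by the 15-gene gate.

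Of the remaining secreted products, Spink1 was the most even across libraries and Afp among the least. Spink1 stood at 19.9, 26.4, 19.8, 20.8, 24.0 and 22.4 in gate cells, a mean of 22.2 ± 2.59 (SD, n = 6). Outside the gate it was 0.098, 0.039, 0.537, 0.028, 0.0997 and 0.068, with library 2_9 alone above 0.1. Its log2 difference was 6.82 ± 0.40 by the 16-gene and 7.38 ± 0.28 by the 15-gene gate. Afp stood at 12.2, 3.50, 5.25, 17.6, 6.63 and 3.17 in gate cells, so libraries 1_10 and 2_12 were high and the other four were near one another. Outside the gate Afp was between 0 (library 1_11) and 0.0742, and its log2 difference was 6.97 ± 0.35, or 7.89 ± 0.27 by the 15-gene gate.

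The 3 uptake genes were higher in gate cells of every library, at unequal levels. Dab2 stood at 28.2, 19.0, 14.6, 29.1, 16.7 and 10.0 in gate cells and at 0.378, 0.131, 0.297, 0.386, 0.255 and 0.265 outside the gate. Its log2 difference was 5.42 ± 0.22 (42.9-fold), or 5.76 ± 0.17 by the 15-gene gate. Cubn stood at 10.4, 18.9, 5.08, 2.00, 3.48 and 2.80, so that, as for Apob, the libraries of title prefix 1 were the high ones. Its partner chain Amn was lower and stood at 1.57, 4.06, 2.66, 1.25, 3.08 and 2.49. Outside the gate Cubn ran from 0.0119 to 0.0507 and Amn from 0.00595 to 0.0402. The log2 differences were 7.44 ± 0.29 for Cubn and 6.62 ± 0.30 for Amn, and 7.41 ± 0.26 and 6.89 ± 0.27 by the 15-gene gate. With the libraries of prefix 2 alone, all 10 genes were still called higher, in a fit that called 2966 of 10352 genes.

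Other genes of these pathways were counted in the same fit from 4 lists, beside the 36.0% of all genes called. Of 10 further lipoprotein genes, 8 were tested, 4 were higher and 2 lower, with a median log2 difference of 0.71. Apoa4 (6.47) and Apoc2 (5.51), both apolipoproteins of triglyceride-rich particles, rose most. Of 12 plasma protein genes only 3 passed the filter on low counts, and all 3 were higher, among them Ambp (8.43), the precursor of alpha-1-microglobulin and bikunin, and F2 (5.21), which encodes prothrombin. Of 14 genes of endocytosis and lysosomes, 13 were tested and 12 were higher, with a median of 1.70. The examples of largest difference were the lysosomal protease Ctsh (6.29), the folate receptor Folr1 (5.73), the motor Myo6 (5.61) and the protease Ctsl (3.55). The clathrin adaptor subunit Ap2m1 did not pass (log2 difference 0.40, edgeR adjusted p = 0.0749). All 8 tested of 9 endoderm transcription factor genes were higher, with a median of 4.45, among them Hhex (5.37), Foxa1 (4.84) and Sox17 (4.78). Hhex is also one of the anterior visceral endoderm markers, and 9 of 9 were tested and higher by the 15-gene gate.

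The 40 gate cells were 7.37% of E6.75 cells and held most of the transcripts of 9 of the 10 genes. They held 92.2% of Afp, 90.4% of Apob, 89.8% of Cubn, 87.8% of Ttr, 87.7% of Spink1, 87.3% of Amn and 86.7% of Apoa1 transcripts. The share was 76.3% for Rbp4 and 72.2% for Dab2, and 48.8% for Apoe, whose library shares ran from 32.3% to 62.9%. Over all kept cells Ttr stood at 1.80 in library 2_9, which held 16 gate cells, and had a median of 0.405 over the 6 libraries.

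**Figure D2:**
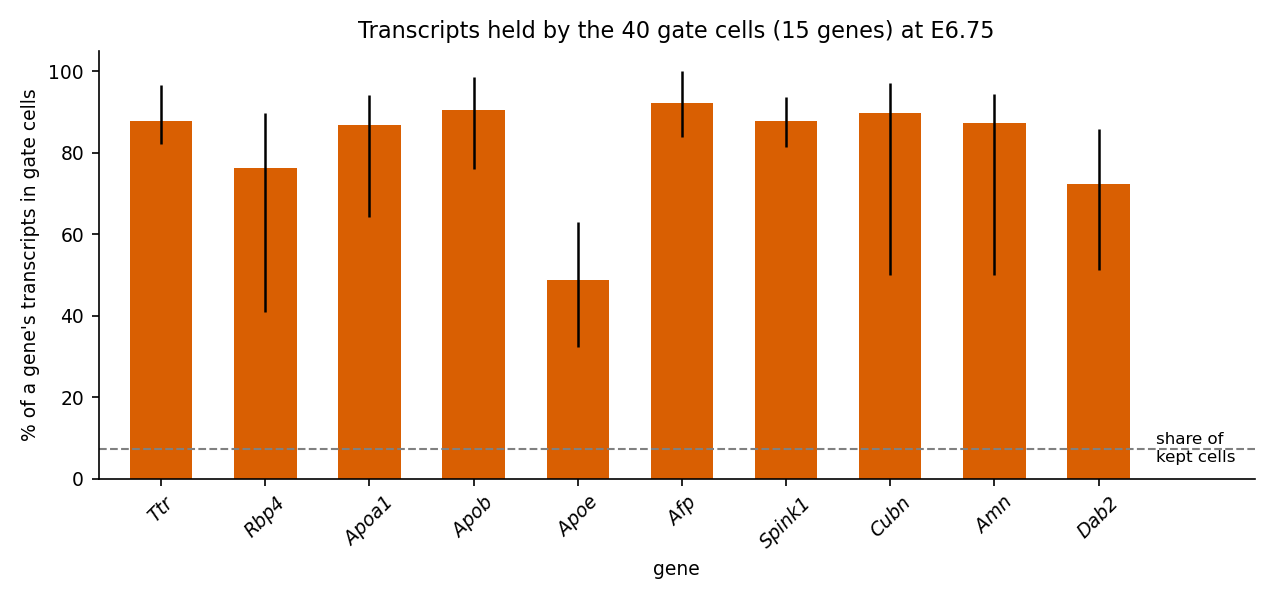
Share of each gene's E6.75 transcripts (percent, axis from 0) held by the 40 cells of the 15-gene gate, with bars for all libraries pooled and lines from the lowest to the highest of 6 libraries; the dashed line is the 7.37% of kept cells that these are. The bars lie between 72.2% and 92.2% for 9 genes and at 48.8% for Apoe.

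Within the gate, cells differed widely. Summed over the 10 genes, a gate cell had a median of 108 transcripts per 10000 (range 25.8 to 219), and a cell outside the gate 1.26. The median by cell was 21.4 for both Apoe and Spink1, 13.9 for Dab2, 13.5 for Apoa1 and 9.32 for Ttr. It was 3.74 for Afp, 2.65 for Rbp4, 2.20 for Apob, 2.00 for Cubn and 1.90 for Amn. Apoe, Apoa1 and Dab2 were found in 40 of 40 gate cells, Ttr, Spink1 and Amn in 39, Afp in 38, Rbp4 in 37 and Cubn in 34. The coefficient of variation between cells, which includes counting error, was lowest for Spink1 (51.9%) and Apoe (56.4%) and highest for Cubn (132%).

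Levels of the 10 genes tended to be high in the same gate cells. Over the 40 cells, Pearson's r of log levels was above 0 in 45 of 45 pairs of genes, with a median of 0.362. These cells come from 6 libraries and share a denominator, so r is a description here. After each library's mean was taken out, the median was 0.439 and the lowest -0.00478. Apob and Cubn had the highest r (0.821), followed by Ttr and Apoa1 (0.659), Rbp4 and Apoa1 (0.639), the partner chains Cubn and Amn (0.612), Apob and Apoe (0.6001), and the carrier pair Ttr and Rbp4 (0.599). With library means taken out, Ttr and Rbp4 came first (0.786), beside Ttr and Apoa1 (0.769) and Apob and Cubn (0.768). Spink1 and Dab2 had the lowest (0.0415).

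Gate cells also differed in anterior visceral endoderm markers (Cer1, Hhex, Lefty1, Dkk1 and Lhx1), whose sum by library was 5.59 to 20.6 per 10000 against 0.110 to 1.34 outside the gate. Over the 40 cells, r with that sum was -0.511 for Dab2, -0.318 for Cubn and -0.254 for Amn, the 3 uptake genes. Only libraries 2_9 and 2_13 had at least 2 gate cells with and 2 without 2 marker transcripts per 10000, and an exact sign-flip test over 2 libraries cannot go below p = 0.5. As values, cells with the markers had 13.2 of Dab2 against 25.2 without, 3.73 against 6.61 of Cubn and 9.52 against 19.9 of Ttr, averaged over the 2 libraries. Amn, the third uptake gene, had 2.82 with against 3.05 without, and Apob went the other way, with 4.21 against 2.29 and both libraries higher. Apoe (18.7 against 17.7) and Spink1 (21.6 against 23.2) were close to each other in the same cells. For Dab2 only 1 of the 2 libraries was lower with the markers, and for Ttr and Cubn both were. With 4 marker transcripts per 10000 as the limit, and the 16-gene gate, the 2 libraries with enough cells were 2_9 and 2_14, not 2_13. Gate, limit and 1 of the 2 libraries thus changed together. These 2 libraries gave 15.5 of Ttr with the markers against 12.98 without. Apob also changed direction there, with 3.38 against 6.68 and both libraries lower with the markers. Cubn, Amn and Dab2 were again lower with them.

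**Figure D3:**
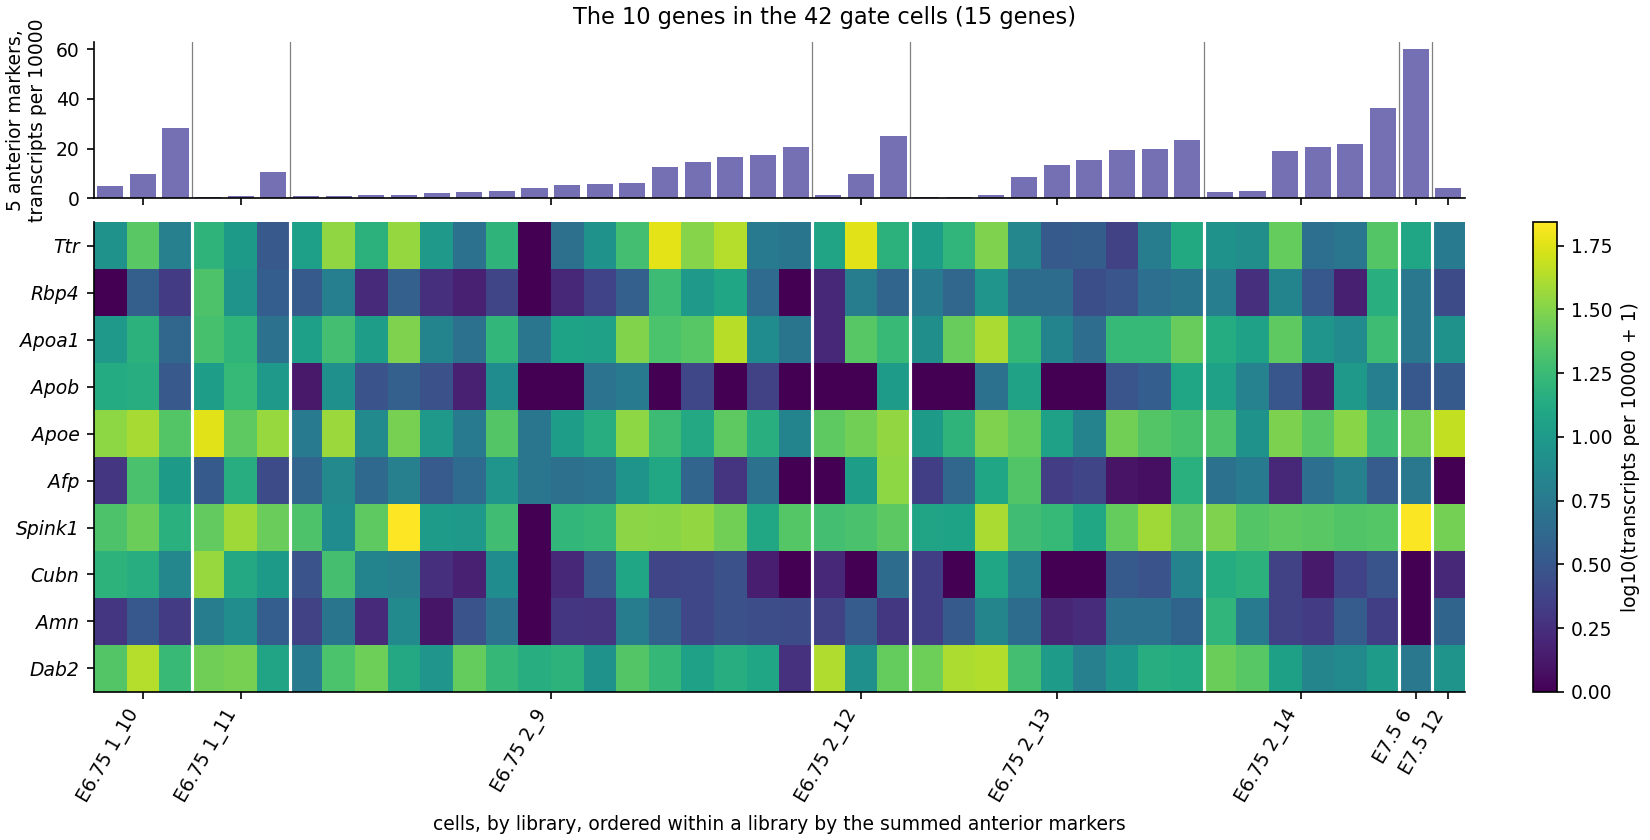
The 42 cells of the 15-gene gate (columns, grouped by library: 40 of E6.75, 2 of E7.5). Bars above give the sum of 5 anterior visceral endoderm markers (transcripts per 10000), and colours below give the level of each gene as log10(transcripts per 10000 + 1). Apoe, Spink1 and Dab2 rows are light in nearly all columns, while Apob and Cubn have dark columns, the cells with no transcript.

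At E7.5, where the cut was made below the chorion, only 2 of 429 cells passed either gate, 1 in replicate 6 and 1 in replicate 12. Their 16-gene sums were 64.4 and 21.1 per 10000, and without Car4 11.1 and 12.4. Of the 16 gate genes, Apoa2, Fgg, S100g and Pdzk1 had no transcript in these 2 cells. The replicate 12 cell had 47518 transcripts, and among them 217 of Apoe, 131 of Spink1, 38 of Dab2, 37 of Apoa1, 22 of Ttr, 14 of Amn, 11 of Apob, 8 of Rbp4 and 3 of Cubn. It had none of Afp, which allows a level of up to 0.631 per 10000, though 2 of the 40 E6.75 gate cells also had no Afp transcript. The replicate 6 cell had only 4516 transcripts, with 30 of Spink1 (66.4 per 10000, exact Poisson 95% interval 44.8 to 94.8), 12 of Apoe, 5 of Ttr and 2 each of Rbp4, Apoa1, Afp and Dab2. It had no Cubn or Amn, which at its depth allows up to 6.64 per 10000, a limit above the E6.75 median of each. Its anterior markers summed to 59.9 per 10000. Intervals and limits cover counting error only. Both cells fell in the node and notochord-like cluster of 28 cells. But their own node and notochord markers summed to only 2.21 (replicate 6) and 0.631 (replicate 12) per 10000, against 5.98 over the other E7.5 cells. Noto, Nog, Chrd and Shh were at 0 in both. Their definitive endoderm markers (Sox17, Foxa2, Cldn4, Krt8, Trh) summed to 24.4 (replicate 6) and 27.5 (replicate 12) per 10000, against 3.09 over the other E7.5 cells, with Pyy at 0 in both. With 2 cells, no test of gate cells at E7.5 or between stages could be made.

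The share of gate cells was 5.25% ± 3.22 (SD, n = 6 libraries) at E6.75 and 0.584% ± 1.31 (n = 11) at E7.5 by the 16-gene gate. The difference of -4.67 percentage points had an exact two-sided permutation p of 0.000566, and by the 15-gene gate it was -6.64 (exact permutation p = 0.000323). All 6 E6.75 libraries had gate cells, and 9 of 11 E7.5 libraries had none. Trimming, picking and sorting differed between the stages, so a share here is a share of collected cells.

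Over all kept cells, 8 of the 9 genes tested were lower at E7.5 than at E6.75, with a median log2 difference of -4.16 against 0.03 over all genes. The fit (edgeR, 6 against 11 libraries) called 38.8% of 9998 genes, 18.8% of them lower at E7.5. Fewer gate cells and fewer transcripts per gate cell cannot be told apart in such sums. In the fit of cells outside the gate between stages, only 3 of the 10 genes (Apoe, Dab2 and Spink1) passed the filter on low counts. The other genes tested here thus passed it only with gate cells counted, and few gate cells were found at E7.5. For those genes a lower level at E7.5 was close to given beforehand. Their calls are no support separate from the share of gate cells. Afp fell most, by 6.76 ± 0.64 (SE), from 666 transcripts at E6.75 to 3 at E7.5, a ratio of pooled levels of 128 (counting interval 43.7 to 624). Cubn fell by 4.79 ± 0.58, Apob by 4.44 ± 0.61, Ttr by 4.41 ± 0.71 and Apoa1 by 4.16 ± 0.70. Rbp4 fell by 2.57 ± 0.39 and Dab2 by 1.94 ± 0.31. Spink1 fell by 2.20 ± 0.75 (edgeR adjusted p = 0.0240), a call lost without library 2_9 (adjusted p = 0.104) or with DESeq2 (adjusted p = 0.154). Leaving out single libraries moved several of these differences by over 1.5 times in fold. Without E7.5 replicate 12 the log2 differences were -6.75 for Apob, -6.11 for Apoa1, -5.97 for Ttr, -5.39 for Cubn and -3.87 for Spink1. Without E7.5 replicate 6 that of Afp was -7.80, and without E6.75 library 2_9 those of Ttr and Apoa1 were -3.59 and -3.49. Amn, with 315 transcripts at E6.75 and 18 at E7.5, was below the filter on low counts.

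Apoe was the gene of the 9 that did not pass. Its level over all kept cells was 1.94 ± 0.591 (SD, n = 6) at E6.75 and 2.32 ± 1.25 (n = 11) at E7.5, and its log2 difference of 0.19 ± 0.25 (SE) did not pass (edgeR adjusted p = 0.582). Without E7.5 replicate 12, the library with the deep gate cell, the difference was -0.029. In the same fit, where 38.8% of all genes were called (1997 of 9998 higher and 1882 lower at E7.5), the counts of the lists are a description, and nothing particular to them is read from counts this small. Of the endocytosis and lysosome genes 12 were tested, 2 were higher at E7.5 (Lrpap1 0.64, Ap2m1 0.26) and 3 lower (Ctsh -2.27, Myo6 -1.92, Lamp1 -0.35). Of the lipoprotein genes 6 were tested, of which 1 was higher (Dgat1 0.68) and 2 were lower. Of 5 endoderm transcription factor genes tested, Sox17 (2.36), Gata6 (1.55) and Foxa1 (1.49) were higher at E7.5.

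Outside the gate the genes fell into a widely detected pair and a rarely detected rest. At E6.75 Apoe was found in 430 of 503 cells outside the 15-gene gate (85.5%) and Dab2 in 253 (50.3%). Spink1 was found in 104 (20.7%), Apoa1 in 79, Ttr in 73 (14.5%), Rbp4 in 66, Cubn in 36, Amn in 29, Afp in 28 and Apob in 24 (4.77%). As a share of the gate level in the same library, the level outside the gate had a median of 3.86% for Apoe, 1.79% for Rbp4, 1.44% for Dab2 and 0.490% for Ttr over 6 libraries. These 3 shares were above that of Ttr in 6 of 6 libraries (exact sign-flip p = 0.03125 each, the smallest that 6 libraries can give, adjusted p = 0.09375). By the 16-gene gate they were above Ttr in 5 of 5 libraries and Apob was below Ttr in 5 of 5 (exact p = 0.0625, the smallest possible, adjusted p = 0.141). After adjustment none of these passed. The part of free RNA from gate cells, and of visceral endoderm-like cells left outside the gate, in these levels was not tested.

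Apoe was higher at E7.5 in the cells outside the gate. Its E6.75 levels there were 0.840 to 1.26 by library, and its E7.5 levels 1.23 (replicate 7) to 3.10 (replicate 12), with a median of 1.90. The ranges meet only at their ends. The log2 difference was 0.80 ± 0.18 by the 16-gene gate (edgeR adjusted p = 0.00123) and 0.91 ± 0.18 by the 15-gene gate (adjusted p = 0.000325), where 39.4% and 39.7% of genes were called, 20.3% and 20.5% higher. The call was lost with the 16-gene threshold at 40 per 10000 (0.49, adjusted p = 0.140). Thinned to 2000 transcripts each, 18.7% of E6.75 and 30.9% of E7.5 cells outside the gate had an Apoe transcript (exact permutation p over libraries, adjusted over 10 genes, 0.0994), against 85.5% and 85.0% at full depth.

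Dab2 and Spink1 were lower at E7.5 in cells outside the 16-gene gate, where 19.1% of all genes were lower, but passed in neither direction outside the 15-gene gate, where 19.2% were lower. Their log2 differences were -0.96 (edgeR adjusted p = 0.00786) and -1.91 (0.0412), and by the 15-gene gate -0.40 (0.168) and -0.93 (0.322). Library means outside the 15-gene gate were 0.285 ± 0.094 (SD, n = 6) against 0.220 ± 0.0875 (n = 11) for Dab2, and 0.145 ± 0.194 against 0.0897 ± 0.155 for Spink1, so both overlapped. The other 7 genes were below the filter there. In thinned cells Ttr was found in 13 of 503 cells at E6.75 (2.58%) and in 0 of 427 at E7.5 (adjusted exact permutation p = 0.00970). That count of 0 allows a thinned share of up to 0.703%, and at full depth the shares were 14.5% and 2.34%. Apoa1 was found in 13 of 503 and 1 of 427 (adjusted exact p = 0.0137), and the thinned shares of the remaining genes did not pass.

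**Figure D4:**
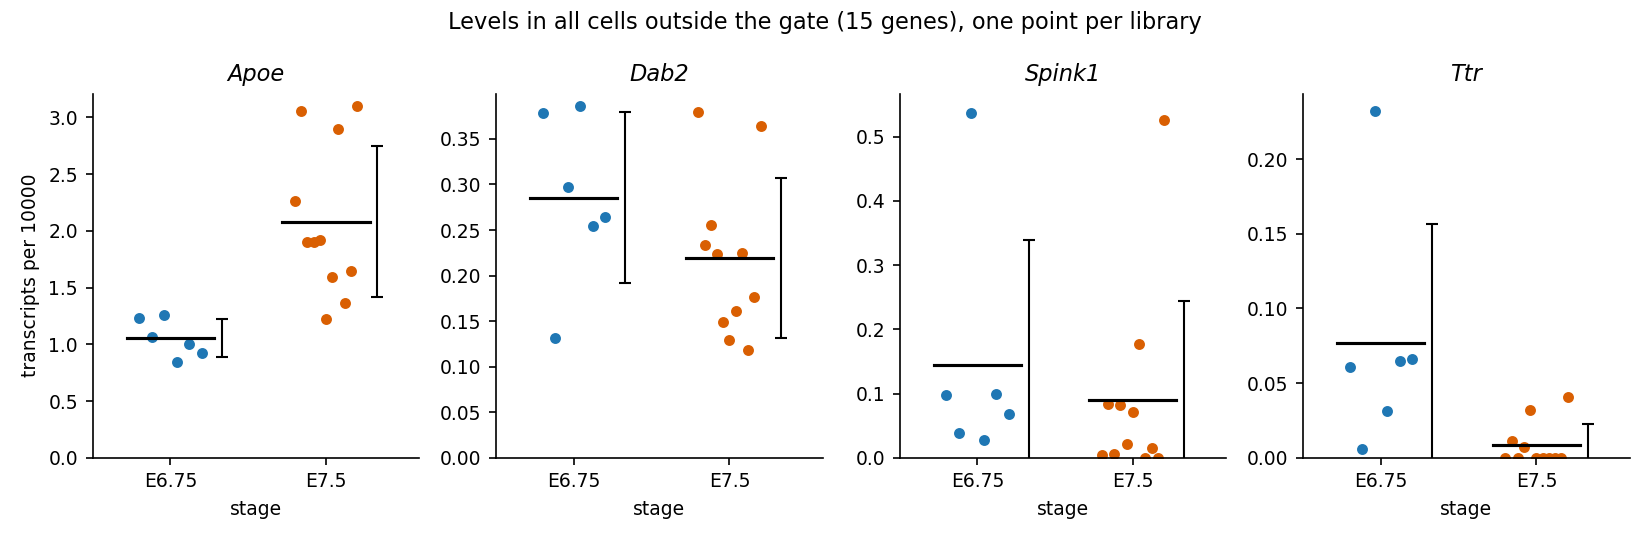
Level of Apoe, Dab2, Spink1 and Ttr (transcripts per 10000, linear axes from 0 that differ between panels) in all cells outside the 15-gene gate, 1 point per library, with a horizontal bar at the mean and an error bar of 1 SD, at E6.75 (6 libraries, blue) and E7.5 (11 libraries, orange). The Apoe groups barely meet (0.840 to 1.26 against 1.23 to 3.10), the Dab2 groups overlap, and library 2_9 is the highest E6.75 point for Spink1 (0.537) and Ttr (0.232).

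Among clusters of cells, named from marker lists with gate cells left out, each of the 3 most detected genes had a different class with the highest pooled level at E7.5. Apoe was highest in the blood and endothelial progenitor-like cluster at 6.09 per 10000, with transcripts in 16 of 16 cells, and next in the extraembryonic ectoderm-like cluster (4.56, 6 cells). It lay between 1.20 and 2.37 in the other classes. Only 1 library had 3 or more of those 16 cells, so no spread over libraries can be given. At E6.75 it was 7.27 in the 3 visceral endoderm-like cells that lay outside the gate, 1.06 in primitive streak-like and 0.935 in epiblast-like cells. The 13 extraembryonic ectoderm-like cells gave 2.58 when pooled but 0.153 in the 1 library with at least 3 of them. Dab2 was highest in extraembryonic and lateral mesoderm-like cells, at 0.615 (38 of 55 cells), with 0.116 to 1.08 over 7 libraries, and at most 0.274 in the other E7.5 classes. Spink1 had its highest pooled level in node and notochord-like cells, at 0.684 (11 of 26 cells), and at most 0.110 in other E7.5 classes. Over 3 libraries the node and notochord-like levels were 0.0572, 0.167 and 0.839, and single libraries reached 0.476 in epiblast-like and 0.260 in paraxial mesoderm-like cells, so the ranges overlap. It had no transcript in the 16 blood and endothelial progenitor-like cells. Outside the gate the highest E7.5 library for Spink1 was replicate 12, at 0.526, with transcripts in 17 of its 27 cells.

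**Figure D5:**
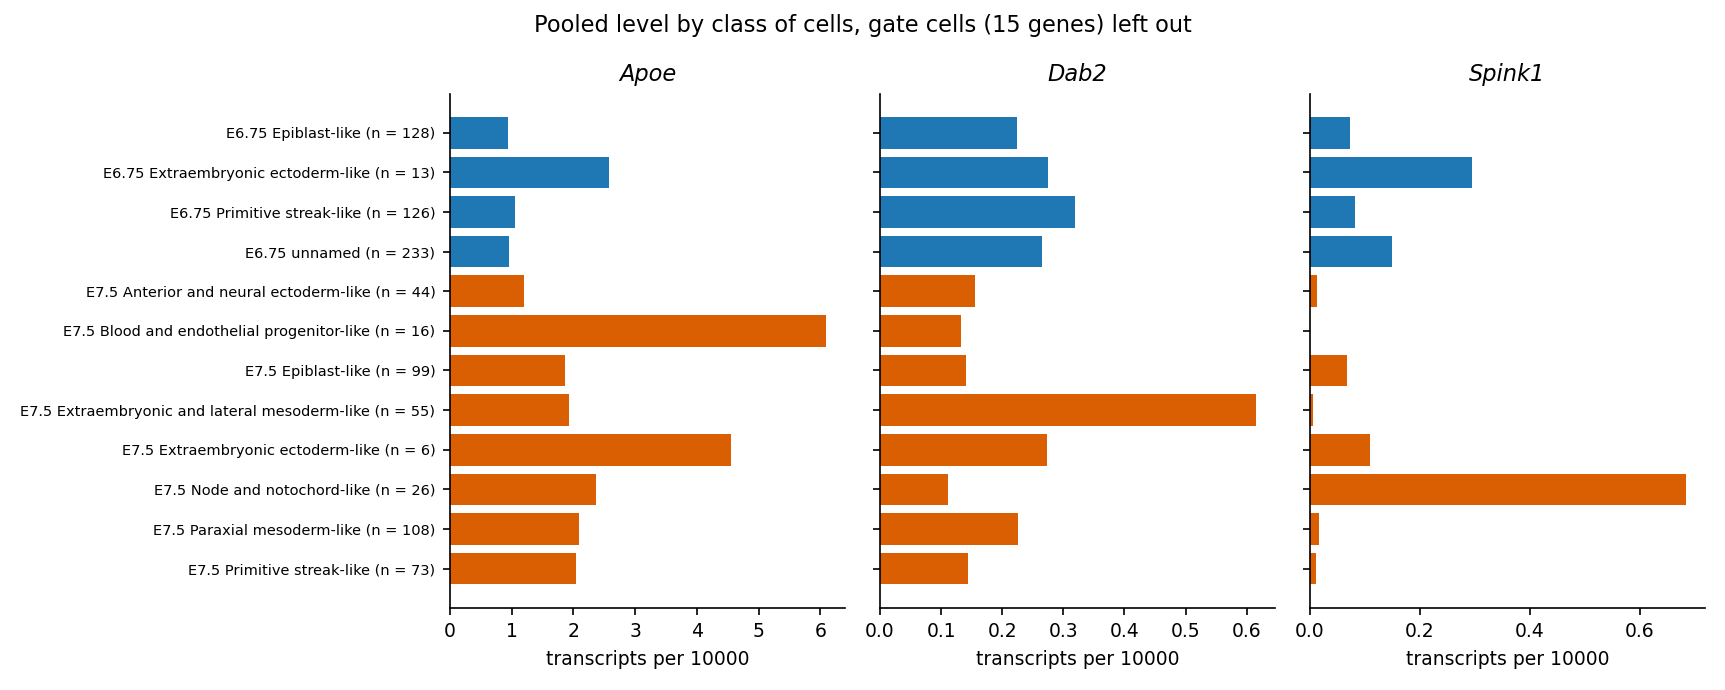
Pooled level of Apoe, Dab2 and Spink1 (transcripts per 10000, axes from 0 that differ between panels) in each class of cells at E6.75 (blue) and E7.5 (orange), with 15-gene gate cells left out, the 3 visceral endoderm-like cells outside the gate not drawn, and the number of cells in parentheses; bars carry no error since several classes have few cells per library. The longest E7.5 bars are the blood and endothelial progenitor-like class for Apoe (6.09), the extraembryonic and lateral mesoderm-like class for Dab2 (0.615) and the node and notochord-like class for Spink1 (0.684).

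Genes outside the 10 whose log level across single cells was most like that of the 10 summed were Ctsh (Pearson's r = 0.822), Cd59a (0.766), Lgmn (0.758), Apom (0.752) and Clic6 (0.751) over 543 cells at E6.75, among 11975 genes found in at least 5% of cells. Ctsh and Lgmn encode lysosomal proteases and Apom a lipocalin of high-density lipoprotein, which was also a gate gene. At E7.5, over 429 cells and 12014 genes, r was lower: 0.403 for Ctsh, 0.365 for Gas6, 0.359 for Cd55, 0.352 for Clic6 and 0.336 for Slc2a3. Cells of 1 library share depth and preparation, so these values describe the cells and carry no p.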

How the data were processed

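Single-cell transcripts were measured in 6 E6.75 and 12 E7.5 mouse libraries of 96 cells each. The deposited values are expected counts of transcripts per gene and barcode (192 barcode columns), in which the authors had corrected observed UMIs for collisions among 4096 UMI sequences, as the values themselves show. Per the submitters' processing notes, bcl2fastq 2.17.1.14 and BWA 0.6.2-r126 were used. Build, annotation, counter and use of strand are not given in the sources used here. The files name 23093 features, and 74 spike-in (ERCC) and 22 mitochondrial features were left out of depth and tests.

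The 96 filled barcodes per library were found by their transcripts. Libraries held 518343 to 5493791 nuclear transcripts there, apart from E7.5 replicate 5 (3042), which had no cell with 2000 transcripts, so precision differs between libraries. Median depth of kept cells was 39348 at E6.75 and 31203 at E7.5. Rounded counts were summed per library over gate cells and over other cells, and tested with edgeR 4.0.16 (R 4.3.3, TMM, filterByExpr, quasi-likelihood test, Benjamini-Hochberg at 0.05 over all genes), checked on simulated data. The fit of gate against other cells used edgeR's newer quasi-likelihood estimate because the older one gave an infinite prior there, and the other choice was tried. DESeq2 1.42.0 was an alternative. Single values were tested by exact permutation over libraries (scipy 1.17.1). Clusters came from scanpy 1.11.5 (2000 variable genes, 30 components, 15 neighbours, resolution 1). Doublets were not called. Libraries share barcode sets (49 of 136 pairs hold the same 96), and 2 of 40 gate cells shared a barcode with a gate cell of another library.

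The 10 genes and the lists were chosen with earlier results of these data known. Named genes were all 10, up to 4 of each list with the largest called difference, and the 5 genes most like the sum. Some genes of the lists are counted but not reported here by name. The 15-gene gate, the other quasi-likelihood estimate and their combinations with leaving out libraries were added after the data were seen.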

Additional observations from a re-analysis of the deposited data

Results flagged for a closer look

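In 5 of 30 groups of libraries 1 library stood apart from the others, its gap to the nearest being more than 0.625 of the group's range for 6 libraries. Chance sets apart about 1 group in 20. E6.75 library 2_9 was the one in 4 of them, with the highest level of Ttr over all kept cells (1.80 per 10000), and of Ttr (0.232), Apoa1 (0.282) and Spink1 (0.537) in cells outside the 15-gene gate. It also held 16 of the 40 gate cells, the most of any library, and its median depth, 22331 transcripts per kept cell, was the lowest of the 6. The part of either in these levels was not tested. E6.75 library 1_11 stood apart in Rbp4 within its 3 gate cells (9.70).

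Barcodes that held no picked or sorted cell carried 0.341% of all transcripts at E6.75 and 0.850% at E7.5. Apoe had 25 transcripts there at E6.75 and 19 at E7.5, Spink1 had 5 at E6.75 and Dab2 had 4 at E7.5, each above the 3 that a count of 0 allows. Those of Apoe were 0.539% and 0.586% of its transcripts, the second below the share over all genes at that stage.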

How the results depend on the processing

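All 10 genes stayed higher in gate cells under each setting that could be fitted at E6.75 (10 called in each, also on leaving out each library and with the 15-gene gate at 3, 5 and 8 per 10000). Without the replicate block the fit again called all 10 genes. It called 3262 of 9133 genes tested, against 3774 of 10472 with the block. By the 15-gene gate these were 3338 of 9069 and 4384 of 10637. Leaving out each library called 2761 to 4066 genes in all there. Between stages over all kept cells, leaving out each library gave 7 to 9 of the 10 genes called against 8, among 3403 to 3920 genes called. For cells outside the gate it gave 2 to 5 of the 10 against 3, among 3517 to 3998 genes called. The 5 came on leaving out E6.75 library 1_11, when more of the 10 passed the filter, and the E6.75 libraries of prefix 2 alone also gave 5. Outside the gate the count was 10 with no filter on low counts and 1 by the 15-gene gate at 5 or at 3 per 10000. At 5 per 10000, 39.7% of 9966 genes were called. The counts of the 10 genes under these settings are a description, and nothing particular to the 10 is read from them. Thinning each cell to 2000 transcripts left 432 of 3202 genes called between gate and other cells. Between stages over all kept cells it left 584 of 2817. Outside the gate it left 594. Members called were then 2 over all kept cells and 1 outside the gate. Apoe over all kept cells turned to -0.15 when thinned and to -0.029 without E7.5 replicate 12 (-0.029 to 0.378 on leaving out each library), and it passed in none of these. Spink1 outside the gate lost its call without library 2_9 (-0.74, edgeR adjusted p = 0.404), with DESeq2 (adjusted p = 0.158) and on leaving out most other single libraries. The cause of these changes was not tested. DESeq2 called 2939 genes between gate and other cells. The difference in the share of gate cells was -5.49 to -3.57 points on leaving out each library. At a threshold of 10 it fell by 6.66 points (exact permutation p = 0.0183) and at 40 by 1.04 (p = 0.0187). In all, 616 values of single genes kept direction and side of the threshold, 21 lost a call and 2 reversed.

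Gate cells at E7.5, their change between stages and the gate threshold of 40 at E6.75 could not be fitted, since too few libraries had 3 such cells. Depth limits genes with few transcripts at E7.5, such as Afp (3) and Apob (13), and the 40 gate cells limit any split among them.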

Other observations

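Ambp had the largest log2 difference of any list gene between gate and other E6.75 cells by the 16-gene gate, 8.43 ± 1.005 (SE), above each of the 10 genes. By the 15-gene gate it was 7.74 ± 0.996, below Afp (7.89).

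The median mitochondrial share of transcripts in gate cells differed by library, at 33.3%, 28.7%, 10.9%, 13.8%, 8.35% and 20.3% in libraries 1_10, 1_11, 2_9, 2_12, 2_13 and 2_14, against 13.5% to 18.4% in the other cells. The 2 libraries of prefix 1, which had the highest levels of Apob and Cubn in the 15-gene gate (for Apob not in the 16-gene gate), were also the 2 with the highest mitochondrial share in gate cells, and its part in those levels was not tested. At E7.5 the replicate 6 gate cell had 51.1 Dkk1 transcripts per 10000, most of its anterior marker sum.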
